A study of Mus musculus with 4 samples.

Results

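The genes of the DNA methylation system and of macroH2A described here were measured in dissected tissues of mouse blastocysts. They were chosen by symbol as Uhrf1, Dnmt1, Dnmt3a, Dnmt3b, Dnmt3l, Tet1, Tet2, Tet3, Dppa3 and Macroh2a1, which is 10 of the 21470 genes in the deposited count table, and all 10 were found there. The embryos were wild type (WT), from B6D2F1 fathers and ICR mothers, and each was split into an embryonic side (the inner cell mass, ICM) and an extra-embryonic side (the trophectoderm, TE). The 4 groups were the E4 ICM, the E4 TE, the D10 ICM and the D10 TE, with 5 barcoded libraries each and no treatment named in the labels. The series title places the groups before and after diapause, the reversible arrest of the blastocyst before it implants. A barcode list deposited with the counts marks E4 as "before" and D10 as "day6", whereas the protocol calls all the dissected embryos diapause embryos.

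DNA methylation is copied after replication when Uhrf1 recognises the half-methylated new strand and brings in Dnmt1, the maintenance methyltransferase. Dnmt3a and Dnmt3b place new methylation, helped by Dnmt3l, which has no catalytic activity of its own. The Tet enzymes oxidise methylcytosine, Dppa3 (also called Stella) keeps Uhrf1 off chromatin and shields the maternal genome of the zygote, and Macroh2a1 encodes a histone H2A variant found on silent chromatin. The early embryo loses most of its methylation up to the blastocyst and regains it around implantation.

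RNA was read from the 3′ end by BRB-seq, a method in which each library receives its own barcode during reverse transcription. Libraries of a group were mixed before amplification, which makes each group 1 pool, and effects of the pool and of the group cannot be told apart. Whether a library holds 1 embryo or several is not given in the sources used here, and the p-values rest on the spread from library to library, which may be technical in part. Totals ran from 144276 to 1010354 counts a library. Levels are given in CPM, the counts scaled to the summed counts of the tested genes with TMM factors. Taken on the total counts of all genes without TMM factors, a count of 0 allows up to 20.8 CPM where depth was lowest. It allows 2.97 CPM where depth was highest, counting error only. Floors on the CPM scale above differ somewhat. Differences are log2 fold changes ± standard error (SE) from edgeR's quasi-likelihood test over 6943 genes, with p-values adjusted by Benjamini-Hochberg and a threshold of 0.05. ICM and TE libraries with the same number came from 1 litter, and 2 of the 5 E4 litters still had a zona pellucida, the coat of the embryo, whereas none of the D10 litters had one.

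The tissue labels were checked against cell type markers. Of 13 tested epiblast markers, 11 had more RNA in the ICM than in the TE at E4 and 1 had less, and 10 were higher in the ICM at D10. The 1 with less was Dppa5a (834 CPM in the E4 ICM, 2250 CPM in the E4 TE). The summed epiblast level overlapped at E4, with 2970 to 4360 CPM in the ICM and 1300 to 4040 CPM in the TE. Sox2, an epiblast factor, averaged 277 CPM in the E4 ICM and 1.15 CPM in the E4 TE, while Pou5f1 was hardly counted anywhere (3.95 CPM in the E4 ICM). Of 14 trophectoderm markers, 10 were lower in the ICM at each time, and 2 were higher there at D10, Elf5 (161 against 69 CPM) and Lrp2 (273 against 3.89 CPM). Their summed level ran from 3240 to 4880 CPM in the E4 ICM, from 4550 to 7750 CPM in the D10 ICM, and from 11000 to 16800 CPM over the TE libraries. All 14 were counted in every group.

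Within the ICM, 7 of 13 epiblast markers fell from E4 to D10, and their summed level went from 2970 to 4360 CPM at E4 to 1650 to 2230 CPM at D10. Of the primitive endoderm markers 6 of 11 rose (Sparc, Cubn, Lama1, Col4a1, Dab2 and Srgn) and 1 fell, Gata6 (edgeR adjusted p = 0.0139). Gata4, Sox17, Pdgfra and Sox7 did not pass. The summed level went from 2030 to 4810 CPM to 9130 to 14200 CPM. Sparc (4700 CPM), Srgn (2040 CPM), Dab2 (1690 CPM) and Lama1 (1540 CPM) averaged most in the D10 ICM, and Dab2 averaged more in the TE at both times (951 and 2600 CPM). Of the 14 trophectoderm markers 6 also rose in the ICM. In the TE, 1 epiblast marker rose and 1 fell, 2 of 11 primitive endoderm markers rose, and 2 trophectoderm markers rose and 2 fell. Of all tested genes, 13.7% rose and 9.97% fell in the ICM, and 11.9% rose and 9.89% fell in the TE. Fewer cells of a type and less RNA per cell cannot be told apart in such bulk tissue, and the part of these shifts in the changes below was not tested. Of the listed markers of oocytes, uterus and blood, 6 of 12, 10 of 12 and 6 of 8 were in the count table. Those found were too low for a test. Their summed levels were at most 51.6, 140 and 136 CPM in any ICM library and 139, 135 and 80.6 CPM in any TE library. The uterus sum includes Foxa2, also on the primitive endoderm list, which averaged 45.4 CPM in the D10 ICM. Among the oocyte markers Oog1, Zar1 and Zp3 were at 0 in both TE groups, while Zp2 averaged 10.3 CPM in the E4 TE and 73 CPM in the D10 TE. Of the blood markers Cd74 was at 0 in all 4 groups, while Hba-a1 averaged 28.3 CPM in the D10 ICM and S100a8 16.7 CPM in the D10 TE.

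All 10 genes passed the filter on low counts. From E4 to D10 in the ICM, 2 rose (Dnmt3l and Tet3) and 6 fell (Uhrf1, Dnmt3a, Tet1, Tet2, Dppa3 and Macroh2a1), against 13.7% of all tested genes rising and 9.97% falling. In the TE 0 rose and 5 fell (Dnmt3a, Dnmt3l, Tet1, Dppa3 and Macroh2a1), against 11.9% and 9.89% of all genes by edgeR. Before adjustment 2 of the 10, Uhrf1 and Dnmt1, were higher in the D10 TE at a p under 0.05, and DESeq2 and limma voom called 0 with adjustment. The median of the 10 log2 changes was -1.23 in the ICM and -0.82 in the TE, beside 0 and 0.02 over all tested genes. Between the tissues at E4, 5 were higher in the ICM and 1 was lower, against 15.8% and 15.4% of all genes. At D10 the numbers were 5 and 2, against 12.9% and 12.6%. The change over time differed between the tissues for 1 gene in each direction, Dnmt3l and Uhrf1, where 3.15% of all genes had a more positive and 1.83% a more negative change in the ICM. Of these 28 calls, 19 were kept in every alternative processing that gave an adjusted p for the gene.

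**Figure D1:**
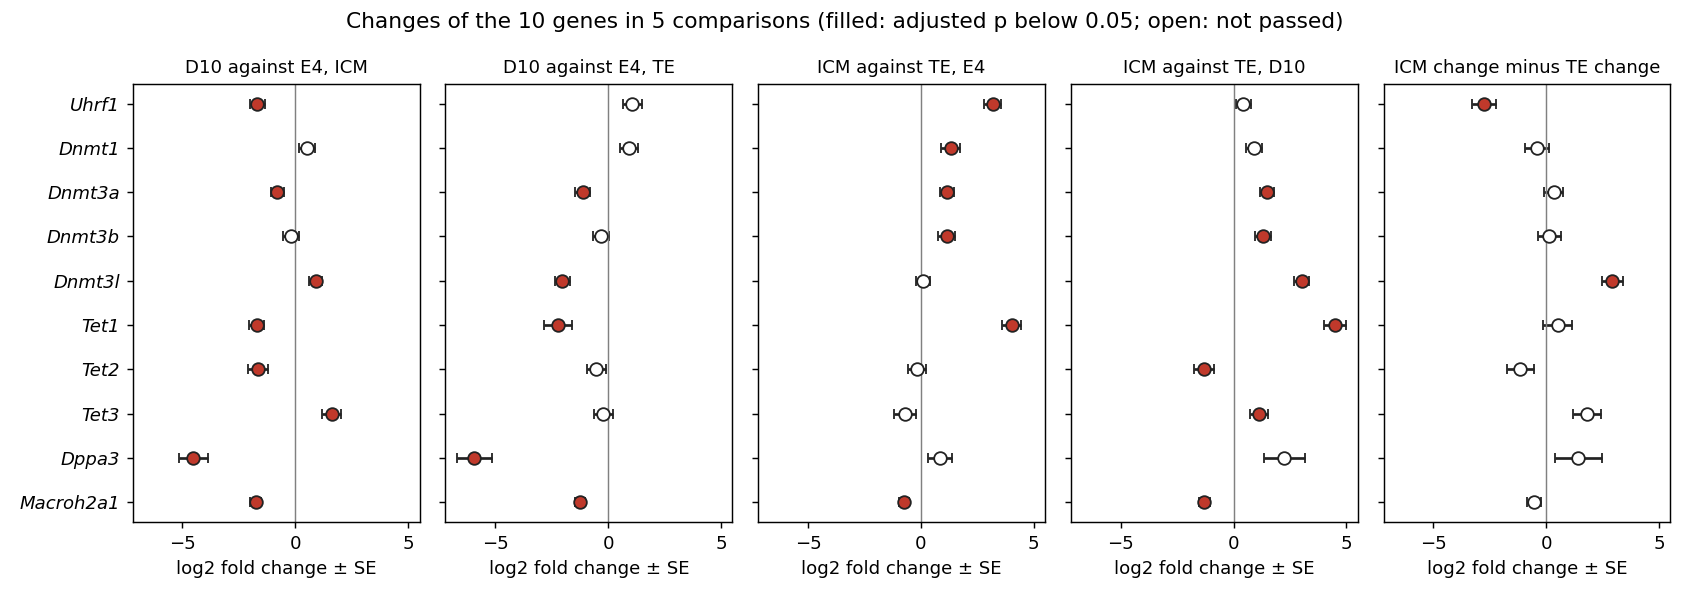
Log2 fold changes (x axis, ± SE) of the 10 genes (y axis) in the 5 comparisons, filled where the adjusted p was below 0.05. Dppa3 lies farthest to the left in both comparisons over time, Tet1 farthest to the right in both comparisons of tissues, and only Uhrf1 and Dnmt3l are filled in the last panel.

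Uhrf1 is the reader that couples maintenance methylation to replication (ENSMUSG00000001228, chr17:56303321-56323486, plus strand, GRCm38). RefSeq promoter windows of GRCm38.p6, the 250 bases before an annotated start, could be matched for 9 of the 10 genes (not for Dppa3), 16 windows in all. One Uhrf1 window, within the gene and without exons, is shown because it held a match to the E2F motif of S-phase genes (TTTGGCGC or TTTCGCGC, either strand), which 0.654% of 32851 promoters hold. It is set beside a window of Dnmt3l, the other gene whose change differed between the tissues, and the window of Tet2, which had more CG pairs than 99.9% of promoters. Capitals mark E2F matches and GC boxes (GGGCGG on either strand, in 32.7% of promoters).
Uhrf1, chr17:56304063-56304312, plus strand: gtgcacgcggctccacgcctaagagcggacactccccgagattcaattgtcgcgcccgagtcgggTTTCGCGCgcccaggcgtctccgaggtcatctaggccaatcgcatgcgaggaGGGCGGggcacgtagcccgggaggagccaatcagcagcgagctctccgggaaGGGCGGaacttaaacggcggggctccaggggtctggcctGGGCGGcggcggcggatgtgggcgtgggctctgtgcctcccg
Dnmt3l, chr10:78049592-78049841, plus strand: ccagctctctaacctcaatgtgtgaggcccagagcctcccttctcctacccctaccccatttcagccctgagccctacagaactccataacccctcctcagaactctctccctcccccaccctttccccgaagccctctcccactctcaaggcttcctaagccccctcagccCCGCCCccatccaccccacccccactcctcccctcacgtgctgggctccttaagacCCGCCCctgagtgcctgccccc
Tet2, chr3:133544391-133544640, minus strand: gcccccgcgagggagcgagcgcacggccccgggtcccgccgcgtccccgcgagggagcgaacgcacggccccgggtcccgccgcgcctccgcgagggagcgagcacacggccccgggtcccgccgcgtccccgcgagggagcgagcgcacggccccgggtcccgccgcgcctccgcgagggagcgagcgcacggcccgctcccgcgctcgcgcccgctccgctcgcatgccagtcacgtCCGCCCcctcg
The Uhrf1 window held 30 CG pairs and 3 GC boxes besides the E2F match, the Dnmt3l window 4 CG pairs and 2 GC boxes, and the Tet2 window 51 CG pairs and 1 GC box, where the median promoter held 6 CG pairs. Counts from the 3′ end do not show which start was used, and a match describes the letters and no bound site.

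Uhrf1 was higher in the E4 ICM than in the other 3 groups, with no library in common. Its level was 228, 144, 169, 182 and 155 CPM in the E4 ICM libraries, 176 ± 32.8 (SD, n = 5). In the E4 TE it was 11.5, 24.9, 17.0, 15.9 and 28.6 CPM, 19.6 ± 6.98 (SD, n = 5), from 2 to 8 counts a library. The ICM was 9.15-fold higher (log2 3.19 ± 0.38, edgeR adjusted p = 8.79e-07). By D10 the ICM stood at 109, 42.8, 27.7, 39.9 and 65.0 CPM, all below the lowest E4 ICM library, a fall of 3.20-fold (log2 -1.68 ± 0.32, edgeR adjusted p = 0.000480). The D10 TE gave 42.0, 65.2, 12.0, 34.9 and 46.4 CPM. Its ranges overlapped those of both the E4 TE and the D10 ICM. The log2 difference in the TE over time was 1.08 ± 0.41 (edgeR adjusted p = 0.0588), which passed without D10 TE replicate 3 (log2 1.30, adjusted p = 0.0130) and without the filter (adjusted p = 0.0479). At D10 the tissues differed by log2 0.44 ± 0.34 (adjusted p = 0.381). The change in the ICM was lower than that in the TE by 2.76 ± 0.52 on the log2 scale (edgeR adjusted p = 0.00167), a difference that kept its call in every alternative.

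Dnmt1 (ENSMUSG00000004099, chr9:20907209-20959888, minus strand) did not follow Uhrf1 in the ICM. It had 120, 91.4, 88.0, 80.6 and 47.3 CPM in the E4 ICM and 28.8, 12.4, 26.8, 55.8 and 35.8 CPM in the E4 TE, 2.50-fold apart, with only the lowest ICM and the highest TE library out of order (log2 1.32 ± 0.41, edgeR adjusted p = 0.0146). Without the zona litters the difference was 0.81 and no longer passed (adjusted p = 0.254). The D10 ICM held 285, 93.9, 44.3, 85.0 and 111 CPM, with replicate 1 far above the rest, and the D10 TE 63.9, 63.2, 42.1, 82.1 and 71.0 CPM. Neither change over time passed, with log2 0.51 ± 0.35 in the ICM (adjusted p = 0.318) and 0.93 ± 0.40 in the TE (edgeR adjusted p = 0.0982). The TE value passed without E4 TE replicate 4 (1.33, adjusted p = 0.0446), without the filter (adjusted p = 0.0483) and with only the groups compared (adjusted p = 0.0489). At D10 the tissues differed by 0.90 ± 0.35 (adjusted p = 0.0588), which passed without D10 ICM replicate 3 (1.07, adjusted p = 0.0199) or 4 (1.03, adjusted p = 0.0450) and without the filter (adjusted p = 0.0225). The E2F motif was also found in 1 of the 3 Dnmt1 windows, one that overlaps an exon of Dnmt1 and is not printed. The share of Uhrf1 in the counts of Uhrf1 plus Dnmt1 was 67.6% ± 5.78 in the E4 ICM, from 61.1% to 76.6%, and 33.3% ± 4.36 in the D10 ICM, from 27.7% to 38.5% (SD, n = 5 each), so these groups did not overlap. In the TE it was 40.2% ± 17.2 and 36.4% ± 10.9, where the E4 value rests on only 7 to 36 counts of the 2 genes a library.

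Of 10 tested partners of maintenance methylation, 5 fell and 1 rose in the ICM from E4 to D10 (median log2 -0.38, beside 0 for all genes), and 2 rose in the TE (median 0.06). At E4, 4 were higher in the ICM. Of all tested genes, 9.97% fell and 13.7% rose in the ICM, 11.9% rose in the TE, and 15.8% were higher in the E4 ICM. Hells, a chromatin remodeller needed for methylation of repeats, averaged 141 CPM in the E4 ICM, 22.0 in the E4 TE, 66.0 in the D10 ICM and 53.3 in the D10 TE. That is the order of Uhrf1, with log2 2.71 ± 0.34 between the tissues at E4 (edgeR adjusted p = 1.76e-06) and a difference of the changes of -2.38 ± 0.45 (adjusted p = 0.00191). With counts thinned to the smallest library the latter was -2.07 (adjusted p = 0.0625). Trim28, the corepressor that guards imprints with KRAB zinc finger proteins, was 2.91-fold higher in the E4 ICM (1.54 ± 0.18, adjusted p = 7.29e-07). Uhrf2, the paralogue of Uhrf1, went against it in the ICM, rising by 1.46 ± 0.43 there (edgeR adjusted p = 0.0159) and by 1.97 ± 0.54 in the TE (adjusted p = 0.0101). The ICM value was lost without E4 ICM replicate 4 (adjusted p = 0.0518) and without the zona litters (adjusted p = 0.0528).

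Uhrf1 and Dnmt1 act during S phase, and genes of S phase were described beside them. Of 26 tested S-phase genes, 18 were higher in the ICM at E4 and 15 at D10, with median log2 differences of 1.21 and 0.82. The shares over all tested genes were 15.8% and 12.9%, and the medians 0.03 and 0.01. Over time 3 fell in the ICM (median -0.20) and 2 rose and 1 fell in the TE (median 0.08). Of all tested genes 9.97% fell in the ICM, and 11.9% rose and 9.89% fell in the TE. The falls of Mcm5 and Mcm7 in the ICM were lost with thinned counts (adjusted p = 0.0896 and 0.0602). In the TE, the calls of Prim1, Ccne1 and Tyms were lost without the zona litters (0.05, 0.106 and 0.118). Ccne1 was also lost with limma voom (0.319) and thinned counts (0.122), and Tyms without the filter (0.102). Single libraries ended the calls of Mcm7, Ccne1 and Tyms as well. The summed level of the S-phase genes was 2700 to 4060 CPM in the E4 ICM, 1250 to 2100 in the E4 TE, 1890 to 3600 in the D10 ICM and 1040 to 1990 in the D10 TE. Mcm7, a subunit of the replicative helicase, was the S-phase gene whose change differed between the tissues (-1.69 ± 0.39, edgeR adjusted p = 0.0111), and this was lost with thinned counts (-1.45, adjusted p = 0.0961).

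**Figure D2:**
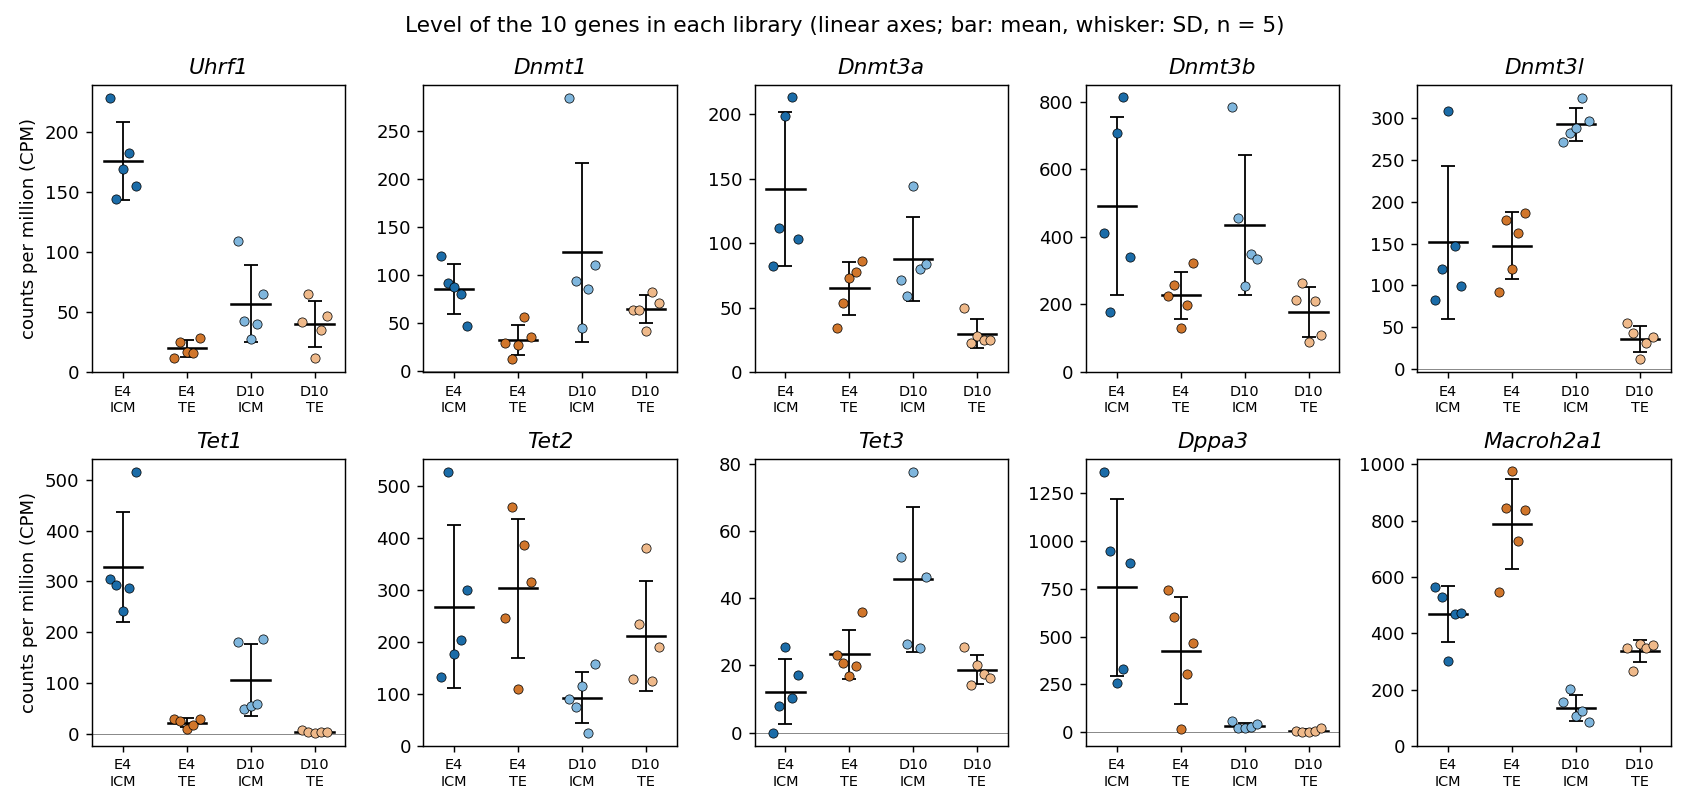
Level in CPM (y axis, linear) of each gene in the 5 libraries of the 4 groups (x axis), each point 1 library, bars the mean and whiskers the SD. Uhrf1 and Tet1 stand high in the E4 ICM, Dnmt3l in the D10 ICM, and Dppa3 is at most 57.0 CPM in every D10 library.

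The de novo enzymes Dnmt3a and Dnmt3b were both higher in the ICM than in the TE. Dnmt3a (ENSMUSG00000020661, chr12:3806007-3914443, plus strand) had 82.4, 112, 199, 213 and 103 CPM in the E4 ICM and 34.5, 53.9, 73.0, 77.7 and 85.9 CPM in the E4 TE. The 2 ranges met only at their edges, and the ICM was 2.21-fold higher (log2 1.15 ± 0.30, edgeR adjusted p = 0.00481). At D10 the ICM gave 71.3, 59.3, 144, 79.8 and 83.6 CPM and the TE 49.3, 22.4, 28.1, 24.5 and 24.6 CPM. Here the tissues did not overlap (log2 1.48 ± 0.32, adjusted p = 0.00100). Dnmt3a fell by 1.13 ± 0.33 in the TE (edgeR adjusted p = 0.0147), in all alternatives. Its fall in the ICM was smaller and fragile (-0.80 ± 0.29, edgeR adjusted p = 0.0467). Leaving out 1 library ended the call in 7 of 10 cases (E4 replicates 2, 3 and 4, and D10 replicates 1, 2, 4 and 5), with values of -0.99 to -0.59 and adjusted p of 0.0167 to 0.176 over the 10. It was also lost with DESeq2 (adjusted p = 0.0689), other size factors (RLE 0.0552, upper quartile 0.0530), no filter (0.0534), a stricter one (0.0537), only the groups compared (0.0715) and thinned counts (0.195).

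Dnmt3b (ENSMUSG00000027478, chr2:153649450-153687730, plus strand) did not pass the test over time in either tissue. It showed 412, 178, 706, 813 and 340 CPM in the E4 ICM, 224, 257, 131, 199 and 322 CPM in the E4 TE, 784, 456, 255, 349 and 334 CPM in the D10 ICM and 214, 263, 90.3, 210 and 109 CPM in the D10 TE. The spread within the ICM was wide at both times and the tissues overlapped at each. The ICM was 2.22-fold higher at E4 (log2 1.15 ± 0.37, edgeR adjusted p = 0.0183) and 2.44-fold higher at D10 (1.29 ± 0.36, adjusted p = 0.00918). The E4 call was lost without E4 ICM replicate 3 (0.96, adjusted p = 0.0662) or 4 (0.85, adjusted p = 0.0885) or E4 TE replicate 3 (0.97, adjusted p = 0.0620) or 4 (1.08, adjusted p = 0.0518). Changes over time were -0.18 ± 0.35 in the ICM (edgeR adjusted p = 0.754) and -0.32 ± 0.37 in the TE (adjusted p = 0.583). The mean share of Dnmt3a in the counts of the 2 enzymes lay between 15.8% and 24.3% in the 4 groups, and single libraries ran from 7.86% to 38.7%, so the groups overlapped.

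Dnmt3l, the cofactor (ENSMUSG00000000730, chr10:78041947-78063622, plus strand), changed in opposite directions in the tissues. At E4 its ranges overlapped, with 82.4, 120, 308, 147 and 98.9 CPM in the ICM and 92.1, 178, 119, 163 and 186 CPM in the TE (log2 0.08 ± 0.31, edgeR adjusted p = 0.861). At D10 the ICM libraries were tight, at 271, 282, 288, 324 and 297 CPM, 292 ± 20.2 (SD, n = 5). The D10 TE had 54.8, 42.8, 12.0, 31.4 and 38.2 CPM, 35.9 ± 15.8 (SD, n = 5), below all E4 TE libraries. The D10 tissues were thus 8.11-fold apart with no overlap (log2 3.02 ± 0.33, adjusted p = 2.13e-07), and the fall in the TE was 4.08-fold (-2.03 ± 0.34, edgeR adjusted p = 9.51e-05). In the ICM the rise was 1.87-fold (0.91 ± 0.29, adjusted p = 0.0270), with E4 replicate 3 inside the D10 range. That rise was lost without E4 ICM replicate 1 (0.80, adjusted p = 0.0596), 2 (0.84, adjusted p = 0.0641), 4 (0.90, adjusted p = 0.0509) or 5 (0.81, adjusted p = 0.0661), without D10 ICM replicate 4 (0.85, adjusted p = 0.0548) and without the zona litters (0.67, adjusted p = 0.181). The difference of the 2 changes was 2.93 ± 0.45 (edgeR adjusted p = 0.000141) and passed in every alternative. As a share of the counts of the 3 Dnmt3 genes, Dnmt3l averaged 19.9% in the E4 ICM, 33.6% in the E4 TE, 37.2% in the D10 ICM and 14.7% in the D10 TE.

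**Figure D3:**
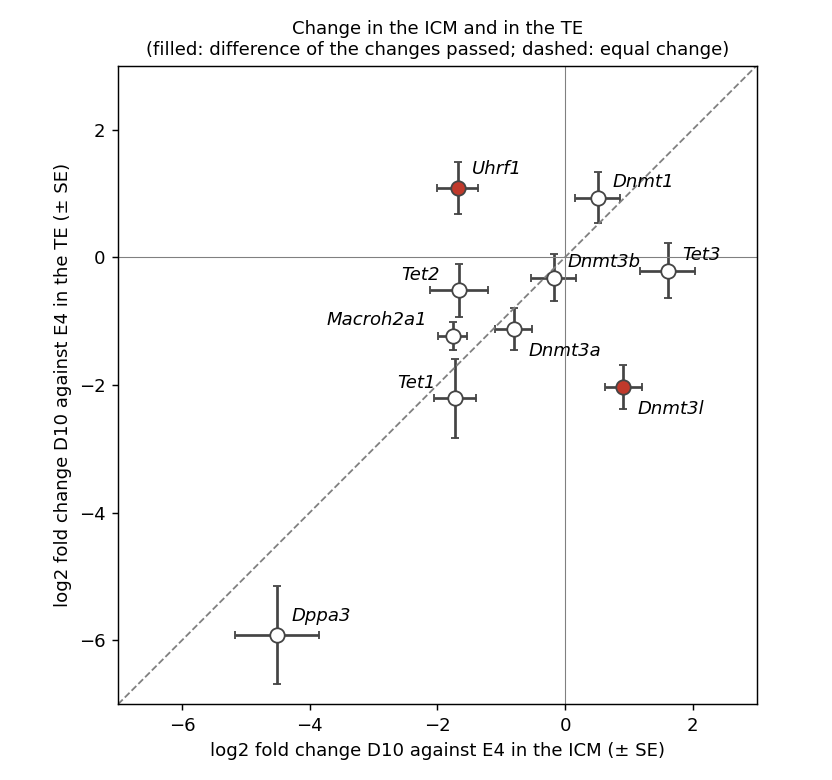
Log2 fold change from E4 to D10 in the ICM (x axis) against that in the TE (y axis), with SE on both, for the 10 genes, and a dashed line for equal change. Uhrf1 lies above the line (-1.68 and 1.08) and Dnmt3l below it (0.91 and -2.03), and these 2 are filled because the difference of their changes passed.

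Among 10 tested partners and guides of de novo methylation, 3 fell in the ICM (Dppa2, Dppa4 and Mta2) and 1 in the TE (Dppa2). Of all tested genes 9.97% fell in the ICM and 9.89% in the TE, so the TE number is near that share. The fall of Dppa4 was lost without the zona litters (adjusted p = 0.168), without E4 ICM replicate 2 (0.0866) or 5 (0.101) and without D10 ICM replicate 2 (0.0897) or 3 (0.0642). That of Mta2 was lost without the zona litters (0.124), without the filter (0.0898), with only the groups compared (0.057) and without E4 ICM replicate 1, 2 or 4 or D10 ICM replicate 2, 3 or 5 (adjusted p = 0.0519 to 0.0712). Dppa2 and Dppa4, which together protect developmental promoters from gaining methylation, were far higher in the ICM. Dppa2 averaged 725 CPM in the E4 ICM, 97.4 in the E4 TE, 215 in the D10 ICM and 11.6 in the D10 TE, and it fell by 1.73 ± 0.42 in the ICM (edgeR adjusted p = 0.00366) and by 2.93 ± 0.58 in the TE (adjusted p = 0.000621). Dppa4 was 14-fold higher in the ICM at E4 (log2 3.80 ± 0.46, adjusted p = 1.15e-06) and 10.7-fold higher at D10 (3.42 ± 0.46, edgeR adjusted p = 3.53e-06). Readers of methylated CG were mostly too low to test, 4 of 10 passing the filter. Of these, Mbd6 fell in the TE (-1.45 ± 0.41, adjusted p = 0.0128), which was lost without E4 TE replicate 4 (adjusted p = 0.0526) and without the zona litters (adjusted p = 0.0524).

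The Tet genes differed in their tissue. Tet1 (ENSMUSG00000047146, chr10:62804570-62908996, minus strand) had 304, 293, 241, 287 and 516 CPM in the E4 ICM and 28.8, 24.9, 9.74, 17.9 and 28.6 CPM in the E4 TE. In the D10 ICM it had 181, 47.8, 55.4, 58.8 and 186 CPM, and in the D10 TE 7.30, 4.08, 2.01, 3.49 and 2.73 CPM, which is 1 to 4 counts a library. No TE library reached any ICM library, and within each tissue the times did not overlap. The ICM was 16.2-fold higher at E4 (log2 4.02 ± 0.41, edgeR adjusted p = 1.18e-07) and 22.8-fold higher at D10 (4.51 ± 0.49, adjusted p = 2.27e-07). Tet1 fell by 1.72 ± 0.33 in the ICM (edgeR adjusted p = 0.000493), where D10 replicates 1 and 5 stood above the other 3. The fall by 2.21 ± 0.62 in the TE (adjusted p = 0.0115) rests on low counts and was lost with limma voom (adjusted p = 0.0813), thinned counts (adjusted p = 0.123) and without the zona litters (adjusted p = 0.0758). The change did not differ detectably between the tissues (0.50 ± 0.64, adjusted p = 0.731).

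Tet2 (ENSMUSG00000040943, chr3:133463679-133545139, minus strand) was counted in both tissues. It gave 133, 528, 176, 203 and 301 CPM in the E4 ICM and 247, 460, 110, 386 and 315 CPM in the E4 TE, with wholly overlapping ranges (log2 -0.16 ± 0.41, edgeR adjusted p = 0.801). At D10 it gave 90.3, 74.2, 116, 25.2 and 158 CPM in the ICM and 128, 234, 381, 124 and 191 CPM in the TE. Only the highest D10 ICM library came into the TE range. Tet2 fell 3.17-fold in the ICM (-1.66 ± 0.45, adjusted p = 0.00846), a call lost without the zona litters (-1.36, adjusted p = 0.0544). In the TE the difference was -0.52 ± 0.41 (adjusted p = 0.397), and that between the changes, -1.15 ± 0.60, passed only without the filter (-1.18, adjusted p = 0.0485, against 0.307 with it). At D10 the ICM was lower by 1.31 ± 0.44 (edgeR adjusted p = 0.0317). This was lost without replicate 1 (adjusted p = 0.0517), 2 (adjusted p = 0.0757) or 4 (adjusted p = 0.0979) of the D10 ICM, without replicate 2 (adjusted p = 0.0511) or 3 (adjusted p = 0.123) of the D10 TE, and with thinned counts (adjusted p = 0.0570).

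Tet3 (ENSMUSG00000034832, chr6:83362373-83459084, minus strand), known as the enzyme of the zygote, had few counts. It showed 0, 7.84, 25.5, 10.3 and 17.2 CPM in the E4 ICM, from 0 to 11 counts a library. The D10 ICM had 52.3, 26.4, 77.6, 25.2 and 46.4 CPM, a rise of 3.06-fold (log2 1.61 ± 0.43, edgeR adjusted p = 0.00831), with 1 E4 library just inside the D10 range. Without the zona litters, which hold the lowest E4 ICM libraries, the rise was 1.24 and did not pass (adjusted p = 0.0675). In the TE it had 23.0, 20.7, 17.0, 19.9 and 35.8 CPM at E4 and 25.6, 14.3, 20.1, 17.5 and 16.4 CPM at D10 (-0.21 ± 0.43, adjusted p = 0.780). The difference of the changes, 1.82 ± 0.62, missed the threshold (edgeR adjusted p = 0.0874) and passed without E4 ICM replicate 3 (2.34, adjusted p = 0.0319). At D10 the ICM was 2.17-fold higher (1.12 ± 0.39, adjusted p = 0.0361). Each of 7 omissions ended that call, ICM replicates 1, 3 and 5 and TE replicates 2 to 5 of D10 (adjusted p up to 0.11), as did limma voom (adjusted p = 0.0571) and the fit without the filter (adjusted p = 0.0622).

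As shares of the counts of the 3 Tet genes, compared between groups only, Tet1 made up 55.7% ± 12.7 in the E4 ICM and 42.4% ± 14.6 in the D10 ICM, against 6.69% ± 2.16 and 2.07% ± 1.54 in the TE (SD, n = 5 each). Tet2 made up 85.6% ± 5.04 and 88.7% ± 6.10 in the TE, and no ICM library passed 63.7%. The Tet3 share was 2.17% ± 2.19 in the E4 ICM, at most 5.76%, and 20% ± 7.38 in the D10 ICM, at least 11.9%. At least 79.5% of the counts in each TE library were of Tet2. Of 7 tested genes of base excision and active demethylation, which act after Tet oxidation, 2 fell in the ICM (Parp1 and Ung), and 3 were higher in the E4 ICM. Over all tested genes the shares were 9.97% and 15.8%. The fall of Ung, a uracil glycosylase, was lost without the zona litters (adjusted p = 0.062), with thinned counts (0.0601) and without E4 ICM replicate 1 or 3 or D10 ICM replicate 2, 3 or 4 (up to 0.0663). Parp1, which binds strand breaks and also macroH2A, fell 3.77-fold in the ICM (-1.91 ± 0.37, edgeR adjusted p = 0.000507) and was 4.50-fold higher there than in the TE at E4 (2.17 ± 0.39, adjusted p = 0.000128). Tdg, the glycosylase for oxidised cytosine, was too low to test, at 0.749 to 4.52 CPM in the 4 groups.

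**Figure D4:**
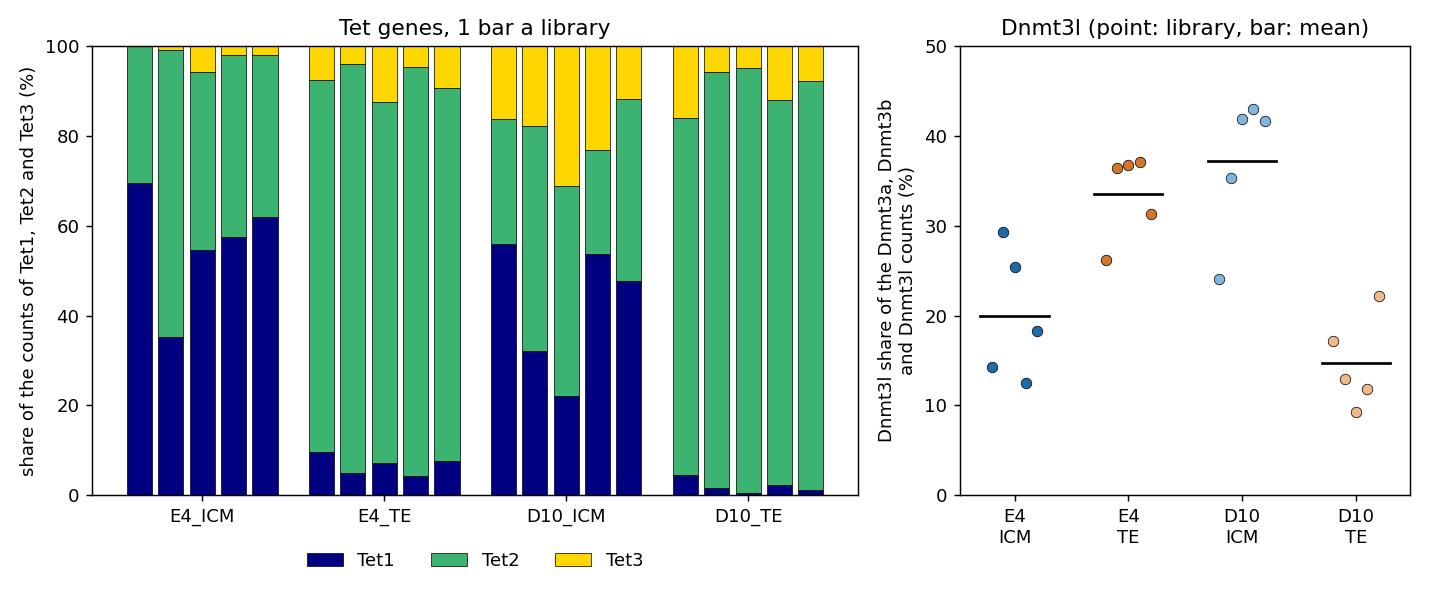
Left, share (%) of Tet1, Tet2 and Tet3 in their summed counts, 1 bar a library by group. Right, share (%) of Dnmt3l in the counts of the 3 Dnmt3 genes, points for libraries and bars for means. Tet2 takes 79.5% to 94.5% of the Tet counts in the TE libraries, and the Dnmt3l means are 19.9%, 33.6%, 37.2% and 14.7% from left to right.

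Dppa3 (ENSMUSG00000046323, chr6:122626410-122630272, plus strand) had the largest change over time of the 10 genes in both tissues. The E4 ICM held 1360, 945, 257, 333 and 886 CPM, from 111 to 362 counts a library, and the D10 ICM 57.0, 24.7, 22.2, 27.3 and 41.8 CPM. The ranges lay well apart, with a 22.7-fold fall (log2 -4.51 ± 0.66, edgeR adjusted p = 2.90e-05). The E4 TE held 742, 601, 19.5, 305 and 465 CPM and the D10 TE 9.13, 0, 0, 5.24 and 21.9 CPM, 16 counts over the whole group. Only E4 TE replicate 3, with 8 counts, lay within the D10 TE range. The fall in the TE was 60.5-fold (-5.92 ± 0.77, adjusted p = 3.98e-06), and without D10 TE replicate 5 it was -6.69 (edgeR adjusted p = 8.52e-06). Both falls passed in every alternative that gave an adjusted p for them, 19 in the ICM and 18 in the TE. The difference between them, 1.41 ± 1.04, did not pass (adjusted p = 0.489).

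Within E4, Dppa3 was higher in the libraries of litters with a zona. The libraries of the 2 litters with a zona had 1360 and 945 CPM in the ICM, above the 257 to 886 CPM of the 3 without, and 742 and 601 CPM in the TE, above 19.5 to 465 CPM. Such a split was not particular to Dppa3. The ranges also lay apart for Dnmt1 and Macroh2a1 (higher with a zona) and Tet3 (lower) in the E4 ICM, and for Dnmt3a (lower) in the E4 TE. With 2 libraries against 3, full separation can easily arise by chance, and these splits were not tested. The share of all genes that split in this way was not counted. The part of the zona status, or of what goes with it, in the changes over time was not tested beyond leaving those litters out. Without them the falls of Dppa3 were -3.86 in the ICM (edgeR adjusted p = 0.000627) and -5.20 in the TE (adjusted p = 9.58e-05). Between the tissues, Dppa3 was higher in the ICM of each litter at E4. The unpaired difference was 0.84 ± 0.53 (adjusted p = 0.241), and with litter as a block it was 1.03 ± 0.32 and passed (edgeR adjusted p = 0.0188). At D10 the tissues only just did not overlap. The lowest ICM library had 22.2 CPM (4 counts) and the highest TE library 21.9 CPM (8 counts), a gap within counting error. The difference of 2.25 ± 0.90 missed the threshold (adjusted p = 0.0667) but passed with the litter block (2.42 ± 0.61, adjusted p = 0.00454), with DESeq2 (2.30, adjusted p = 0.0316), without the filter (2.24, adjusted p = 1.41e-06) and without D10 TE replicate 5 (3.02, adjusted p = 0.0319). At E4 it also passed without the filter (0.83, adjusted p = 0.00935).

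Macroh2a1 (ENSMUSG00000015937, listed as H2afy in GENCODE M21, chr13:56073619-56136361, minus strand) fell in both tissues and was lower in the ICM at both times. It had 564, 528, 303, 469 and 473 CPM in the E4 ICM and 547, 846, 976, 729 and 837 CPM in the E4 TE, where only the lowest TE library came into the ICM range. At D10 it had 157, 203, 105, 125 and 83.6 CPM in the ICM and 349, 267, 361, 346 and 358 CPM in the TE, with no overlap. The fall was 3.38-fold in the ICM (log2 -1.76 ± 0.23, edgeR adjusted p = 8.03e-06) and 2.34-fold in the TE (-1.23 ± 0.22, adjusted p = 0.000178), again with no overlap between times. The ICM was lower by 0.76 ± 0.22 at E4 (edgeR adjusted p = 0.00844) and by 1.29 ± 0.23 at D10 (adjusted p = 0.000114). The change did not pass as different between the tissues (-0.53 ± 0.31, adjusted p = 0.360). All 4 calls of Macroh2a1 were kept in every alternative. Over the same interval, 6 of 14 trophectoderm markers rose in the ICM. Summed primitive endoderm markers went from 2030 to 4810 CPM at E4 to 9130 to 14200 CPM at D10 there, while Gata6, on that list, fell. Summed epiblast markers went from 2970 to 4360 CPM to 1650 to 2230 CPM. The part of these shifts in the fall of Macroh2a1 was not tested.

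The second macroH2A gene, Macroh2a2, was too low to test, averaging 7 CPM in the E4 ICM and 0 in the E4 TE. Of 10 tested H2A variants and macroH2A partners, 6 fell in the ICM (median -0.81) and 2 in the TE (median -0.37), and 3 were higher in the ICM at each time. Over all tested genes, 9.97% fell in the ICM and 9.89% in the TE. Those higher in the ICM were 15.8% at E4 and 12.9% at D10. H2ax, the variant of damaged chromatin, fell in the TE (-1.47 ± 0.37, edgeR adjusted p = 0.00476), and H2az1 fell there too (-1.44 ± 0.43, adjusted p = 0.0164), a call lost without the zona litters (adjusted p = 0.0737). Atrx, a remodeller that binds macroH2A and is also in the H3K9 list, was 4.72-fold higher in the ICM at E4 (2.24 ± 0.31, adjusted p = 7.15e-06) and 2.07-fold at D10 (1.05 ± 0.29, adjusted p = 0.00937). Macroh2a1 itself was lower in the ICM at both times.

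Across the 20 libraries, which share the 4 groups and their pools, the genes nearest to each member by Pearson's r of log2 CPM were listed as a description. Tet1 was nearest to Isyna1 (0.956), Dppa4 (0.955) and Nanog (0.955), of which the last is a factor of the naive epiblast. Uhrf1 was nearest to Thop1 (0.901), Nasp (0.895), a histone chaperone, and Rnf213 (0.890). Dppa3 was nearest to Ak4 (0.932) and Lsm5, and Macroh2a1 to Rad54l2 (0.926), Coro1c and Gm6867. Dnmt1 had Hcfc1 (0.845), Qdpr and Wdr12 as its nearest genes. For the de novo genes these were Igf2bp1 (0.868), Fscn1 and Selenos for Dnmt3a, U2af1 (0.845), Siah1b and Rrm2 for Dnmt3b, and Hspb1 (0.834), Cyp51 and Rps12-ps2 for Dnmt3l. Tet2 was nearest to Arid1a (0.882), Usp48 and Sun1, and Tet3 to Zfp809 (0.857), Casc3 and Zfp871. Among the members, Tet1 went with Dnmt3a (0.791) and Uhrf1 (0.773), Tet2 with Macroh2a1 (0.594), and Dnmt1 against Macroh2a1 (-0.560).

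Genes that DNA methylation is known to control were described next, with no methylation measured here. Of 15 tested imprinted genes, 9 rose and 1 fell in the ICM (median log2 0.95) and 3 rose in the TE (median 0.61). Over all tested genes 13.7% rose and 9.97% fell in the ICM, and 11.9% rose in the TE. Of the TE rises, that of Peg3 was lost with limma voom (adjusted p = 0.214) and with thinned counts (0.0757). It was also lost without the zona litters (0.0796) or D10 TE replicate 2 (0.105). Mcts2 was lost with limma voom (0.0829), without the filter (0.0747) and without the zona litters (0.163). Omitting E4 TE replicate 1, 2 or 5 or D10 TE replicate 4 also ended its call (up to 0.0884). H19, a maternally expressed RNA, averaged 271 CPM in the E4 ICM and 9570 in the D10 ICM, a 35.1-fold rise (5.13 ± 0.64, edgeR adjusted p = 4.81e-06), and it went from 52.3 to 2710 CPM in the TE (5.60 ± 0.68, adjusted p = 1.88e-06). Peg3, a paternally expressed gene, rose 7.19-fold in the ICM (2.85 ± 0.45, adjusted p = 7.60e-05). Meg3, maternally expressed, had 99 counts in the E4 ICM and 0 in the E4 TE, at least 28.7-fold higher against 3 counts over the group. Peg10, needed for the placenta, was 19.4-fold higher in the ICM than in the TE at D10 (4.28 ± 0.71, edgeR adjusted p = 5.82e-05).

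Of 20 germline genes known to be silenced by promoter methylation, 4 had enough counts for the test, of which 1 rose and 1 fell in the ICM and 3 rose in the TE. The shares over all tested genes were 13.7%, 9.97% and 11.9%. The fall was that of Tex19.1, a guard against retrotransposons (-0.71 ± 0.26, edgeR adjusted p = 0.0482). It was lost without any 1 of the 10 ICM libraries other than D10 replicate 4 (adjusted p = 0.0537 to 0.138), and also with RLE factors (0.0579), DESeq2 (0.061), no filter (0.0857), a stricter one (0.0519), only the groups compared (0.0588) and without the zona litters (0.192). The homeobox gene Rhox5 reached 736 CPM in the D10 ICM, a 33.5-fold rise (5.06 ± 0.52, edgeR adjusted p = 2.03e-07) and it went from 14.7 to 175 CPM in the TE (3.65 ± 0.57, adjusted p = 5.33e-05). Tex19.1 rose in the TE (1.01 ± 0.25, adjusted p = 0.00381), and the D10 ICM was 4.45-fold below the D10 TE (-2.15 ± 0.26, adjusted p = 7.76e-07). Asz1, a gene of the germline piRNA pathway, was the third to rise in the TE (1.52 ± 0.44, adjusted p = 0.0136), which was lost without E4 TE replicate 4 (adjusted p = 0.0691). The summed level of the list was 291 to 589 CPM over the E4 libraries and 659 to 1370 CPM over those of D10, and most of it came from Rhox5 and Tex19.1, which averaged 736 and 112 CPM in the D10 ICM and 175 and 520 CPM in the D10 TE. Members too low to test went both ways in the ICM. Dazl (13.4 and 0.929 CPM) and Sycp1 (26.6 and 4.17 CPM) had less at D10. Tex13b (0.463 and 26.8 CPM) and Slc25a31 (0 and 3.23 CPM) had more. In the TE, Sycp1 averaged 3.78 CPM at E4 and 19 CPM at D10.

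Of 15 tested genes of H3K9 methylation and heterochromatin, 1 rose and 5 fell in the ICM and 1 rose and 2 fell in the TE. The 5 were Cbx1, Atrx, Morc3, Resf1 and Wiz. Over all tested genes, 13.7% rose and 9.97% fell in the ICM, and 11.9% rose and 9.89% fell in the TE. The fall of Cbx1 in the ICM was lost without the filter (adjusted p = 0.0792), with thinned counts (0.255) and without the zona litters (0.0659). That of Resf1 was lost without E4 ICM replicate 3 or 4 or D10 ICM replicate 1 or 2 (up to 0.0921). Suv39h1, which methylates H3K9 at pericentric repeats, rose 3.27-fold in the ICM (1.71 ± 0.29, edgeR adjusted p = 0.000142). Of 13 genes listed under Polycomb, 4 fell in the ICM, while 3 rose and 3 fell in the TE. The list also holds opposing demethylases, of which Kdm6b was among those that fell in the TE (-1.29 ± 0.30, edgeR adjusted p = 0.00298). Jarid2, a cofactor of the complex, fell in the ICM (-1.18 ± 0.25, adjusted p = 0.00126), and Suz12, a core subunit, fell 2.83-fold in the TE (-1.50 ± 0.20, adjusted p = 7.60e-06). Of 8 tested genes of methyl donor supply, 1 rose and 1 fell in each tissue, near the shares over all tested genes. Ahcy, which removes the inhibitory product of methylation, was 4.65-fold higher in the E4 ICM than in the TE (2.22 ± 0.48, adjusted p = 0.000959). Its fall in the ICM, the rise of Mat2b in both tissues and the fall of Tyms in the TE, which are the 4 changes counted, were all lost without the zona litters (adjusted p = 0.12 for Ahcy, 0.0901 and 0.112 for Mat2b and 0.118 for Tyms).

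Beside 13.7% of all tested genes rising in the ICM and 11.9% in the TE, 2 of 8 genes of X inactivation rose in each tissue by edgeR. These were Ftx, a noncoding RNA beside Xist, in both tissues, Lrif1 in the ICM and Smchd1, a chromatin protein of the inactive X that is also in the H3K9 list, in the TE. None of these 4 calls held with limma voom (adjusted p = 0.0649 and 0.0938 for Ftx in the ICM and the TE, 0.075 for Lrif1 and 0.0943 for Smchd1) or without the zona litters (0.14, 0.0562, 0.125 and 0.111 in the same order). Single libraries also ended them, namely E4 ICM replicates 1, 2 and 4 and D10 ICM replicates 1, 2 and 3 for Ftx in the ICM (adjusted p up to 0.107), and E4 TE replicates 2 to 5 and D10 TE replicates 1 and 2 for Ftx in the TE (up to 0.138). Lrif1 was lost without E4 ICM replicate 2 or 5 or D10 ICM replicate 3 (up to 0.0612), and Smchd1 without E4 TE replicate 2, 3 or 4 or D10 TE replicate 1 or 3 (up to 0.0961). Xist itself did not pass in any comparison, with 61.8 to 175 CPM in the 4 groups.

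Some of the counts carry limits of identity. Dnmt3b has a close paralogue, Dnmt3c, and Dnmt3a, Dnmt3l and Dppa3 have processed copies in GENCODE M21, so their counts are uncertain where counting could have split reads. Dnmt3a, Dnmt3b, Dnmt3l, Tet2, Tet3 and Macroh2a1 overlap a gene on the other strand (for Dnmt3l it is Aire), and no other gene has an exon in the last kilobase of any of the 10, where 3′ reads fall.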

How the data were processed

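The 10 genes were measured in 20 BRB-seq libraries, 5 in each of 4 groups. The authors deposited raw counts per gene and library, not normalized. Per the submitters' processing notes, which give neither order nor role, featureCounts 2.0.1, HISAT2 2.2.1, Trim Galore 0.6.7 and UMI-tools were among the tools, and GRCh38 and GRCm38 the builds. UMI collapsing, strandedness and the annotation counted were not given in the sources used here, so intervals and floors cover counting error only. Litter and zona status are text labels of the barcode list the authors deposited.

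Of 21470 genes, 912 had no count, and the 6943 that passed filterByExpr (minimum count 10) were fitted with edgeR 4.0.16 (R 4.3.3, TMM, quasi-likelihood) in 1 model of the 4 groups. P-values were adjusted by Benjamini-Hochberg over all tested genes in each of 5 comparisons, with a threshold of 0.05, and every "adjusted p" is edgeR's unless DESeq2 1.42.0 or limma 3.58.1 is named. The script was tested on simulated counts. Alternatives were RLE and upper quartile factors, DESeq2, limma voom, no filter, a minimum count of 20, thinning to the smallest total, only the groups compared, litter as a block, leaving out the E4 zona litters, and leaving out each library. ICM and TE libraries of a number share a litter per the barcode list, and their deviations from the group means correlated at 0.177 on average at E4 (0.104 to 0.263) and 0.168 at D10 (-0.0302 to 0.293). Litters differ between the times, so numbers pair nothing there. No pair of libraries in a group matched within counting noise (lowest chi-square per degree of freedom 2.57).

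The 10 genes and 18 lists were chosen with earlier results of these data known. Named were all 10 genes, up to 3 genes with the smallest adjusted p per list and comparison, and the 3 genes most like each member, of which 1 is not reported here. Markers named in the check of the tissues were picked after their values were seen. So were the genes quoted as untested (Tdg, Macroh2a2, Dazl, Sycp1, Tex13b, Slc25a31) and Xist. Promoters come from RefSeq (GRCm38.p6) and coordinates from GENCODE M21 (GRCm38).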

Additional observations from a re-analysis of the deposited data

Results flagged for a closer look

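Among the 40 sets of 5 libraries (10 genes in 4 groups), 6 held a library whose gap to its neighbour took more than 0.71 of the range, and chance flags about 1 in 20 such sets. These were Dnmt1 in the D10 ICM, where replicate 1 was highest at 285 CPM, and Dnmt3a in the D10 ICM, where replicate 3 was highest at 144 CPM. Dnmt3a in the D10 TE was highest in replicate 1 at 49.3 CPM. In the E4 ICM, Dnmt3l was highest in replicate 3 at 308 CPM and Tet1 in replicate 5 at 516 CPM. Macroh2a1 in the D10 TE was lowest in replicate 2 at 267 CPM.

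For 2 genes the change from E4 to D10 differed between the tissues by the test of the difference itself. Uhrf1 changed by -2.76 more in the ICM than in the TE on the log2 scale (-1.68 against 1.08), and Dnmt3l by 2.93 (0.91 against -2.03). Both differences kept their direction and their call without each of the 20 libraries, between -3.04 and -2.47 for Uhrf1 and between 2.75 and 3.41 for Dnmt3l.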

How the results depend on the processing

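Of the 28 calls on the 10 genes, 19 were kept in every alternative that gave an adjusted p for the gene and 9 were lost in at least 1. None of the 28 reversed, and the 146 named results of other genes in the lists had 256 lost calls among 2858 recomputed values and 0 reversals. Other size factors moved the median of all genes by less than 0.1 (log2). Without the filter on low counts, 1474 genes were higher in the ICM at D10 and 352 had a more positive change in the ICM. Counts thinned to the smallest total left fewer calls: 524 higher and 356 lower in the ICM over time, 410 and 353 in the TE, 575 and 627 for the ICM against the TE at E4, 449 and 419 at D10, and 130 and 65 for the difference of the changes. Leaving out the E4 zona litters gave 379 genes lower in the ICM over time and 144 and 54 for the difference of the changes, with fewer samples. Leaving out 1 library at a time gave 83 (without D10 ICM replicate 2) to 128 genes with a more negative change in the ICM.

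The litter as a replicate block brought Dppa3 past the threshold in both comparisons of tissues (1.03 at E4 and 2.42 at D10) and changed no other call on the 10 genes. No count of calls moved by over 1.5 times under it.

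Directions reversed for uncalled values near 0 only, and the cause was not tested. Dnmt3l between the tissues at E4 was 0 with limma voom, -0.01 with the litter block and -0.38 to 0.18 with 1 library left out. Dnmt3b over time in the ICM was 0.02 with thinned counts and -0.47 to 0.09 with 1 library left out, and its difference of the changes was -0.24 without the zona litters and -0.13 to 0.42 with 1 library left out. The difference of the changes of Dnmt1 was 0.09 without the zona litters, and Tet2 between the tissues at E4 was -0.6 to 0.01 with 1 library left out. Low counts limit Tet1 and Dppa3 in the D10 TE, Uhrf1, Dnmt1 and Tet1 in the E4 TE and Tet3 in the E4 ICM. In the E4 TE, Dnmt1 had 3 to 28 counts a library and Tet1 4 to 9.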
